A study of Mus musculus with 16 samples.

Results

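The genes of cytochrome P450 families 1 to 4 were examined in cultured primary mouse hepatocytes that had been given a lipid mixture, itaconate or both. A gene was counted as a member when its symbol was Cyp followed by a family number from 1 to 4, a subfamily letter and a gene number, and symbols of pseudogenes were left out. This gave 80 of the 55450 genes quantified. The 80 genes fell into 21 subfamilies on 9 chromosomes.

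Cytochromes P450 of these families are haem enzymes of the endoplasmic reticulum that insert an oxygen atom into drugs, pollutants, steroids, bile acids and fatty acids, with electrons passed on by cytochrome P450 reductase. They are among the most abundant transcripts of the hepatocyte and are known for their dependence on ligand-activated receptors: *Ahr* for the *Cyp1a* genes, the constitutive androstane receptor (*Nr1i3*) for *Cyp2b10*, the pregnane X receptor (*Nr1i2*) for *Cyp3a11* and *Ppara* for *Cyp4a10* and *Cyp4a14*. Enzymes of the *Cyp2c* and *Cyp2j* subfamilies convert arachidonic acid to epoxides, and those of the *Cyp4* family hydroxylate fatty acids at the terminal carbon. Hepatocytes that are taken into culture are known to lose P450 transcripts over time.

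The hepatocytes came from livers of wild-type C57BL/6J mice, which the study describes as males of 8 to 12 weeks of age, and were kept overnight in medium with 5% fetal bovine serum and insulin, transferrin and selenium. There were 4 treatment groups of 4 libraries each: untreated cells, cells with 10 mM sodium itaconate, cells with a chemically defined lipid mixture (arachidonic, linoleic, myristic, oleic, palmitic and stearic acids with cholesterol) diluted 10-fold, and cells with both. No group received a sodium salt without itaconate, and the libraries of a group are labelled A to D. The labels do not state whether a letter is a mouse, a cell preparation or a plate. The main model takes out differences between letters. Its p-values thus measure the spread that is left between these libraries, which may be technical in part.

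The libraries held 22346049 to 35512004 expected counts (median 27719372), which are read counts per gene that divide a read fitting several genes among them. Levels are given as CPM, the counts of a gene scaled to library size and TMM factor, and a member was tested where its mean over the 16 libraries was at least 1 CPM. The label of the cells was checked with lists of marker genes. All 10 hepatocyte markers were above 1 CPM, with a summed level of 41774 to 58012 CPM in untreated libraries, while 10 of 10 macrophage markers were also above 1 CPM at a summed 552 to 649.7 CPM. Most of the first sum came from *Alb*, and most of the second from *Cd14* and *Cd68*, at means of 35171, 348 and 196 CPM in untreated cells. Endothelial (5 of 7 markers above 1 CPM, at most 23.4 CPM summed over any library), stellate (1 of 7, at most 24.4 CPM) and bile duct markers (1 of 5) were lower, with the bile duct markers at 116 to 138 CPM in untreated and 81.2 to 116 CPM in lipid-treated cells and 1 of them at 0 in every library. Lipid + itaconate replicate B stood apart from the 3 other libraries of its group, with a chi-square per gene of 94.9 to 131, against 9.14 to 57.0 in the other pairs of libraries within a group, and counts of calls are given with and without it. In bulk RNA, fewer cells of a type and less RNA per cell cannot be told apart.

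Of the 80 members, 43 in 14 subfamilies passed the filter and were tested, 22 had counts but a mean under 1 CPM, and 15 had no count in any library. A count of 0 in the smallest library allows a level of up to 0.134 CPM, which covers counting error only. Closest to the filter were *Cyp1a1* with a mean of 1.03 CPM just above it and *Cyp2c40* with 0.968 CPM just below it. Members without a count included *Cyp2b13*, *Cyp2b19*, *Cyp2b23*, *Cyp2t4*, *Cyp2w1*, *Cyp4x1* and 4 of the 8 *Cyp2j* genes. *Cyp1b1*, the family 1 gene outside the *Cyp1a* pair, had at most 1 count in any library and none in the 8 libraries with lipid. Genes that in mouse liver are known as female-type were near 0 (*Cyp2b9* at a mean of 0.210 CPM, *Cyp3a41a* at 0.0375 CPM and *Cyp3a44* at 0.0573 CPM), whereas *Cyp2d9*, *Cyp4a12a* and *Cyp4a12b*, known as male-type, were all tested.

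Together the members took 0.766 ± 0.0604% (SD, n = 4) of the counts in untreated hepatocytes, 0.797 ± 0.0543% with itaconate, 0.751 ± 0.0684% with lipid and 0.750 ± 0.0479% with both, and these ranges overlapped. Levels between genes were compared per kilobase of exon (CPM per kb), counting all annotated exons of a gene. This length was 5093 bases for *Cyp3a11*, 2158 for *Cyp2e1* and 2083 for *Cyp3a25*. The order and the gaps below hold for these annotated lengths only. In untreated cells *Cyp2e1*, which oxidizes ethanol and paracetamol, stood first at 796 ± 131 CPM per kb (SD, n = 4), followed without overlap by *Cyp3a11*, the main drug-oxidizing enzyme of its subfamily, at 247 ± 20.2 CPM per kb. *Cyp2d10* (215 ± 9.79), *Cyp2a5* (204 ± 23.5), *Cyp2c29* (176 ± 28.5), *Cyp2d26* (173 ± 11.9), *Cyp2d9* (163 ± 11.2) and *Cyp2f2* (153 ± 10.9) followed after a further gap without overlap, and among these 6 each overlapped the next. Another gap separated *Cyp2f2* from *Cyp1a2* (95.9 ± 10.0). The most abundant members of the other subfamilies were *Cyp4a14* (67.0 ± 20.2), *Cyp2j5* (64.1 ± 2.13), *Cyp4v3* (45.9 ± 2.79), *Cyp4f14* (27.5 ± 2.25), *Cyp2b10* (13.1 ± 3.87), *Cyp2r1* (5.43 ± 0.486) and *Cyp2u1* (0.694 ± 0.0717 CPM per kb). Within the *Cyp1a* pair the levels were far apart, with *Cyp1a1*, whose product oxidizes aromatic hydrocarbons, at 0.271 ± 0.0847 CPM per kb.

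**Figure D1:**
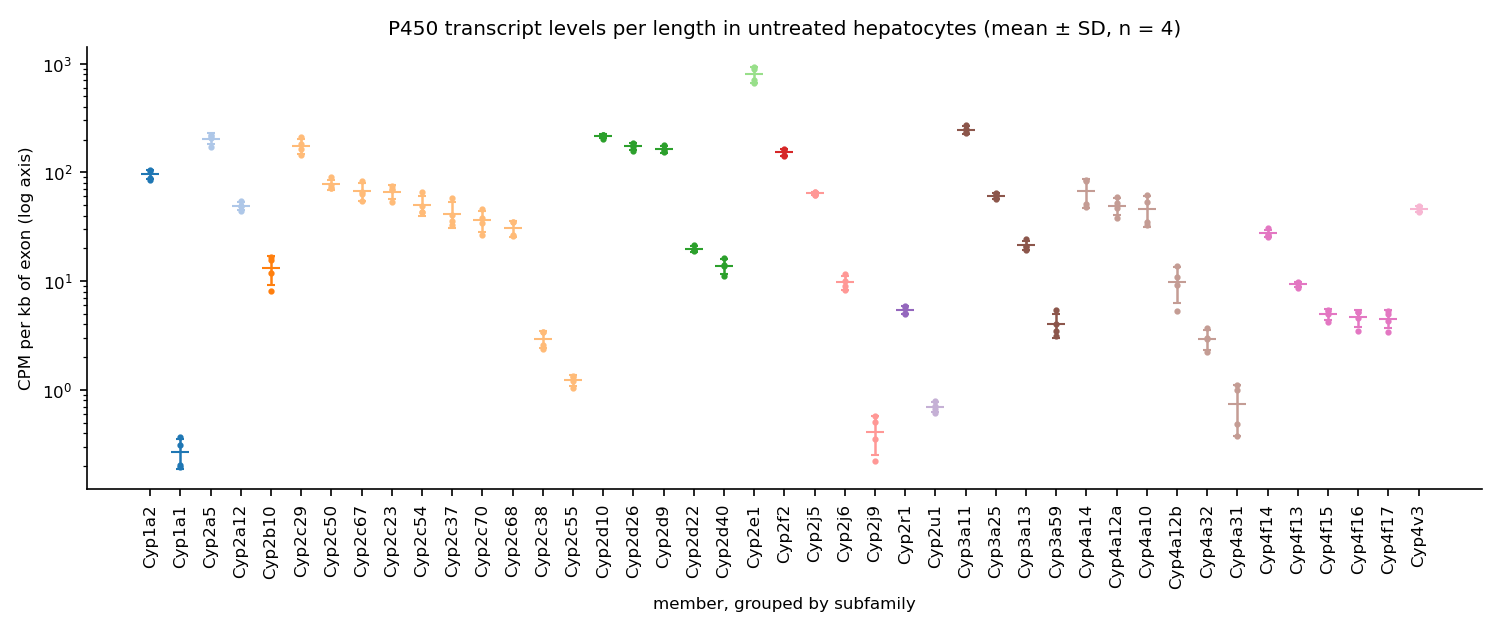
Level per length of the 43 members tested in untreated hepatocytes, in CPM per kb of exon on a log axis, grouped by subfamily; points are the 4 libraries and bars the mean ± SD. *Cyp2e1* lies at 796 CPM per kb and *Cyp1a1* at 0.271 CPM per kb.

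Many members are near copies of each other, and this bears on how their reads were divided. Of all member values 39.8% were not whole numbers, against 5.41% of values over all genes. Of the 43 members tested, 18 shared over 10% of the 50-base stretches of their transcripts with another gene, and 6 shared none. *Cyp4a12a* and *Cyp4a12b* shared 48.9% and 49.5% of their stretches with each other, *Cyp2c67* shared 40.0% and *Cyp2c68* 35.6% with *Cyp2c40*, and *Cyp2a5* shared 28.1% with *Cyp2a4*. The split of counts within these sets is uncertain, and a difference between their members can carry over from one to the other. *Cyp2f2*, *Cyp2r1*, *Cyp2c70*, *Cyp2c23*, *Cyp2j9* and *Cyp3a13* shared no stretch with another gene.

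Lipid was compared with no treatment to ask which P450 genes respond to fatty acids and cholesterol. Of the 43 members, 4 rose and 12 fell without itaconate (adjusted p under 0.05, edgeR's quasi-likelihood test), where 47.5% of all 11675 genes tested passed, 23.8% upward and 23.7% downward. When itaconate was present in both groups, 4 rose and 16 fell, where 47.0% of all genes passed, 23.5% upward and 23.5% downward. The shares of members that passed were thus near or below those of all genes, while downward changes made up 12 of the 16 calls and 16 of the 20. The median log2 fold change over the 43 members was −0.15 without and −0.16 with itaconate, against 0.0047 and 0.0041 over all genes. The comparisons contrast different libraries, but the same model gave both, with shared letter terms and a shared estimate of the spread. The calls in both are thus not independent. In both, 10 members passed, which is 62.5% of the first set of calls and 50% of the second. Of these 10, 2 were higher and 8 lower in each. Of all genes, 4206 passed in both, which is 75.8% and 76.7% of the calls. Only 3 members without itaconate and 1 with it differed by 1.5-fold or more, against 10.2% and 9.27% of all genes.

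**Figure D2:**
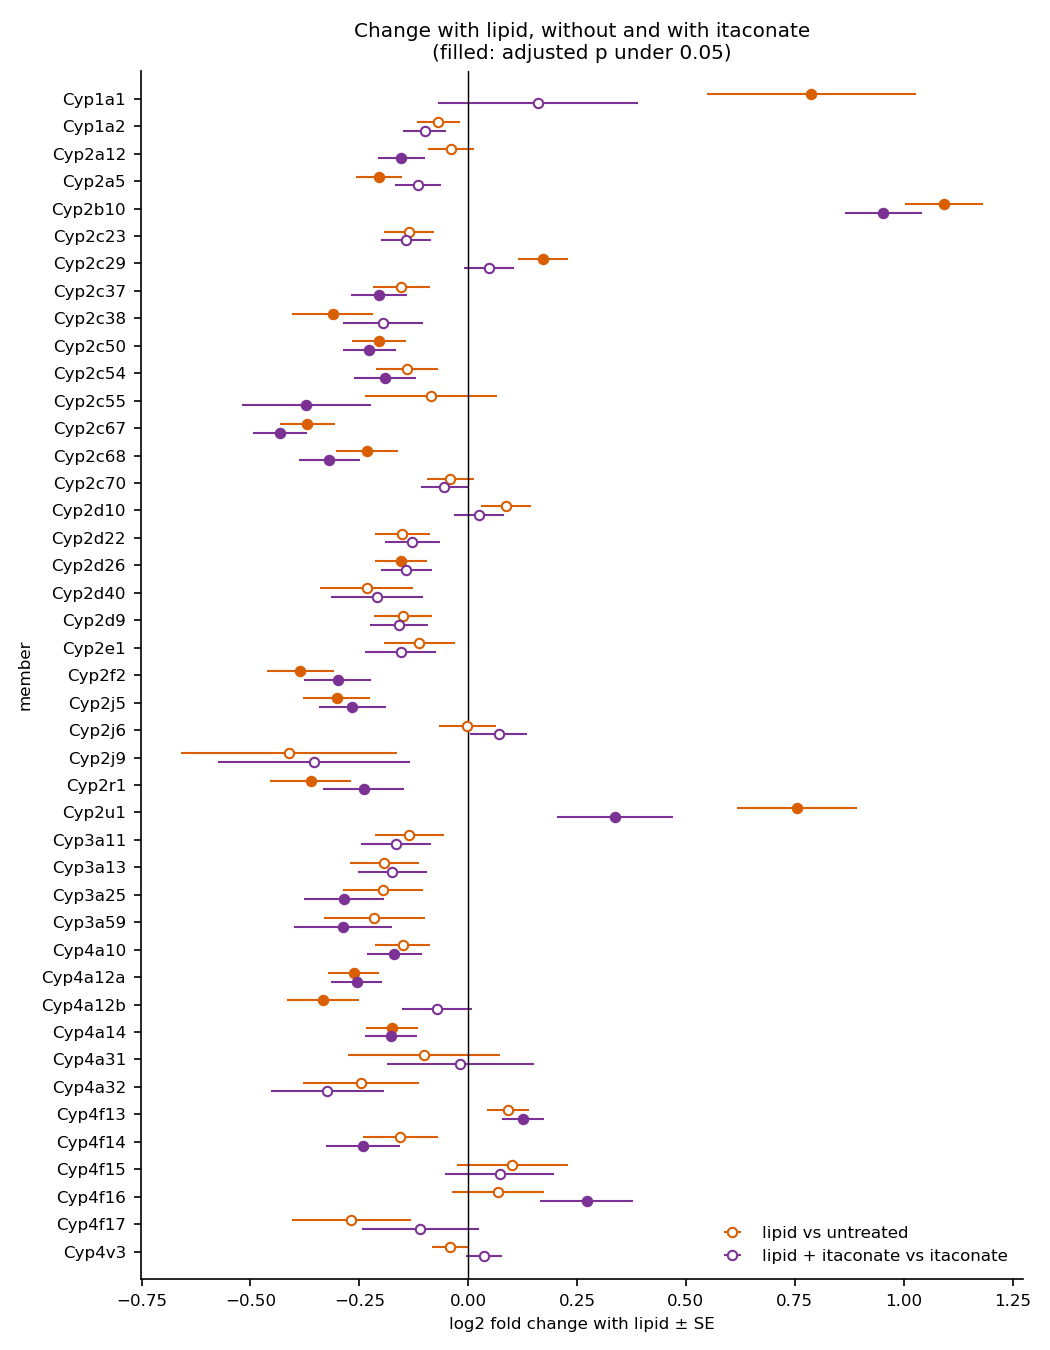
Log2 fold change with lipid (± SE, from the edgeR model) for each of the 43 members, without itaconate (orange) and with itaconate (purple); filled points have an adjusted p under 0.05. *Cyp2b10* lies at 1.09 and 0.95, apart from the other members, and 35 and 33 members lie below 0.

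*Cyp2b10*, the phenobarbital-inducible enzyme, showed the largest rise among the members called. It was at 25.1, 34.99, 17.1 and 33.1 CPM in untreated hepatocytes of replicates A to D, 25.1, 35.02, 17.6 and 33.6 CPM with itaconate, 61.0, 64.2, 41.4 and 64.4 CPM with lipid and 56.8, 72.0, 27.9 and 62.1 CPM with lipid + itaconate. Every lipid library exceeded every untreated one, and in each letter the lipid library was above its partner, but lipid + itaconate replicate C stayed below the highest libraries without lipid. The rise was 2.13-fold without itaconate (log2 fold change 1.09, SE 0.089, edgeR adjusted p = 1.82e-07) and 1.94-fold with it (log2 fold change 0.95, SE 0.088, edgeR adjusted p = 1.02e-06). The 4 other *Cyp2b* genes gave no comparison, as none reached 1 CPM.

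*Cyp2u1*, which hydroxylates long-chain fatty acids, was the other member called higher in both comparisons. Its levels were low, at 3.23, 3.50, 4.12 and 3.70 CPM in untreated hepatocytes of replicates A to D, 4.45, 3.99, 4.36 and 5.75 CPM with itaconate, 7.79, 5.93, 5.34 and 5.69 CPM with lipid and 5.83, 5.58, 5.72 and 6.36 CPM with lipid + itaconate. The lipid libraries lay above all untreated ones, and with itaconate present the groups overlapped. *Cyp2u1* rose 1.69-fold without itaconate (log2 fold change 0.76, SE 0.14, edgeR adjusted p = 0.000386) and 1.26-fold with it (log2 fold change 0.34, SE 0.13, edgeR adjusted p = 0.0491), and the difference between both changes had −0.42 (SE 0.19, edgeR adjusted p = 0.568) as an interaction term.

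**Figure D3:**
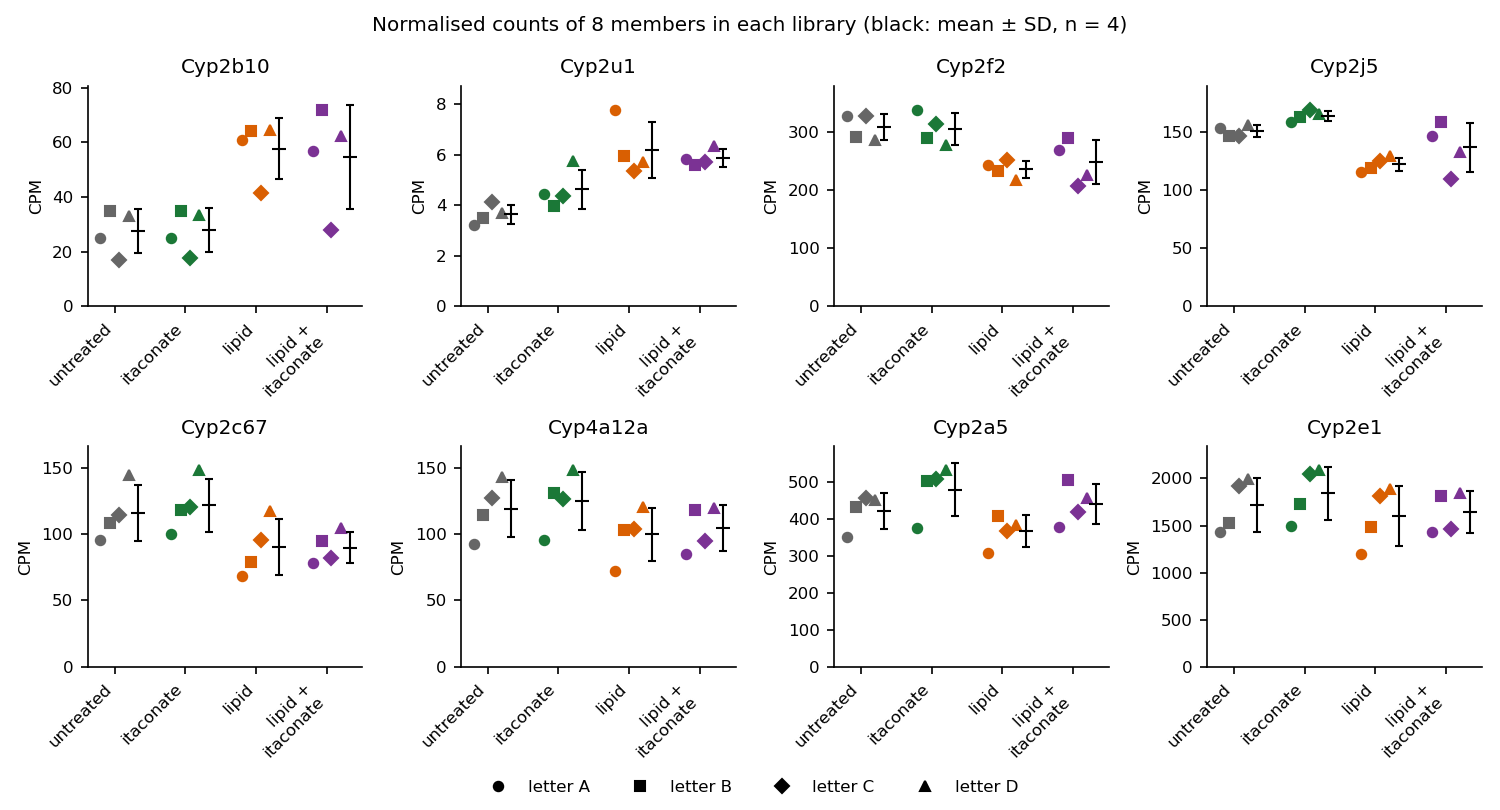
Level in CPM of 8 members in each of the 16 libraries, by treatment, with 1 symbol per replicate letter and the mean ± SD in black. *Cyp2b10* rises from a mean of 27.6 to 57.7 CPM and *Cyp2f2* falls from 309 to 237 CPM with lipid.

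Of the *Ahr*-dependent pair, *Cyp1a1* passed in 1 of both lipid comparisons and *Cyp1a2* in neither. *Cyp1a1* was at 1.03, 0.876, 0.547 and 0.570 CPM in untreated hepatocytes of replicates A to D, 0.905, 1.181, 0.564 and 1.1798 CPM with itaconate, 1.46, 1.80, 0.809 and 1.15 CPM with lipid and 0.966, 1.81, 0.744 and 0.898 CPM with lipid + itaconate. These values correspond to 15.0 to 48.05 counts a library. It rose without itaconate (log2 fold change 0.79, SE 0.24, edgeR adjusted p = 0.0133) and was higher with lipid in 4 of 4 letters, with overlapping groups, whereas with itaconate its log2 fold change was 0.16 (SE 0.23, edgeR adjusted p = 0.591). This call was lost in 3 of the 19 alternatives that tested the gene (without the replicate letter, and without untreated replicate B or D). Of 4 *Ahr* targets tested outside the P450 genes, 1 rose and 1 fell without itaconate and none passed with it. The shares of all genes that passed were 47.5% and 47.0%. *Cyp1a2*, which oxidizes caffeine, was at 172, 209, 212 and 180.2 CPM in untreated hepatocytes of replicates A to D, 174, 209, 209 and 184 CPM with itaconate, 156, 215, 188 and 179.8 CPM with lipid and 159.9, 217, 174 and 175 CPM with lipid + itaconate. Its log2 fold changes with lipid were −0.069 (SE 0.050, edgeR adjusted p = 0.273) and −0.10 (SE 0.050, edgeR adjusted p = 0.113). Both genes share stretches of sequence, and none of their counts were whole.

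The *Cyp4a* genes encode fatty acid hydroxylases on chromosome 4, and 6 of the 8 were tested. *Cyp4a12a*, the main male-type arachidonic acid hydroxylase, fell in both lipid comparisons (log2 fold change −0.26, SE 0.058, edgeR adjusted p = 0.00175 without itaconate and log2 fold change −0.26, SE 0.058, edgeR adjusted p = 0.00212 with it). It was at 92.5, 115, 127 and 143 CPM in untreated hepatocytes of replicates A to D, 95.8, 131, 126 and 149 CPM with itaconate, 72.3, 103, 104 and 120.3 CPM with lipid and 85.1, 118, 95.03 and 120.04 CPM with lipid + itaconate. It was lower with lipid in each letter while the groups overlapped. Its near copy *Cyp4a12b* was at 12.8, 22.1, 33.03 and 26.1 CPM in untreated hepatocytes of replicates A to D, 13.5, 22.03, 32.9 and 23.0 CPM with itaconate, 10.0, 15.9, 29.2 and 20.4 CPM with lipid and 10.7, 23.9, 30.4 and 23.1 CPM with lipid + itaconate. It fell without itaconate (log2 fold change −0.33, SE 0.082, edgeR adjusted p = 0.00354) but had a log2 fold change of −0.071 (SE 0.080, edgeR adjusted p = 0.491) with it.

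*Cyp4a10* and *Cyp4a14* are the members best known as targets of *Ppara*. *Cyp4a14* was at 132, 126, 221 and 218 CPM in untreated hepatocytes of replicates A to D, 137, 135, 228 and 218 CPM with itaconate, 109, 117, 197 and 196 CPM with lipid and 127, 134, 175 and 189 CPM with lipid + itaconate. It fell 1.13-fold (log2 fold change −0.17, SE 0.060, edgeR adjusted p = 0.0260) and 1.13-fold (log2 fold change −0.18, SE 0.060, edgeR adjusted p = 0.0242), in 4 of 4 letters each time. *Cyp4a10* was at 73.1, 69.6, 131 and 113 CPM in untreated hepatocytes of replicates A to D, 77.6, 74.7, 132 and 114 CPM with itaconate, 61.0, 62.8, 123 and 104 CPM with lipid and 72.1, 72.5, 104 and 100 CPM with lipid + itaconate. The log2 fold changes were −0.15 (SE 0.063, edgeR adjusted p = 0.0614) without and −0.17 (SE 0.063, edgeR adjusted p = 0.0364) with itaconate, of which the second passed. The summed level of the *Cyp4a* genes went from 420.2 ± 109 CPM in untreated cells to 367 ± 103 CPM with lipid, and from 435 ± 100.2 CPM with itaconate to 376 ± 61.9 CPM with both, lower in every letter. Of all genes, 23.7% fell with lipid without itaconate and 23.5% with it. Of 12 *Ppara* targets outside the P450 genes, 9 fell and 1 rose with lipid, with a median log2 fold change of −0.46. With itaconate present, 9 fell and none rose, with a median of −0.50. Among them were *Pdk4*, which restrains pyruvate oxidation (−1.34 and −1.09), and *Angptl4*, an inhibitor of lipoprotein lipase (−1.02 and −0.85).

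The *Cyp2c* subfamily is a cluster of 15 members on chromosome 19, of which 10 were tested, and it held changes in both directions. With lipid 1 rose and 4 fell without itaconate, and 6 fell with it. The starts of 6 tested genes and of *Cyp2b10* are shown here, to show where 2 short motifs of liver promoters lie in genes of this cluster that differ in their change with lipid. The sequences are the last 120 bases free of annotated exons before each RefSeq start (GRCm38.p6). For *Cyp2c29* that start lies inside the gene as GENCODE annotates it, which begins at chr19:39269405. All are given on the strand of the gene and 5′ to 3′, with TATAAA and the HNF4A-type motif TGNACTTTG (on this strand CAAAGTNCA) in capitals.
Cyp2c29: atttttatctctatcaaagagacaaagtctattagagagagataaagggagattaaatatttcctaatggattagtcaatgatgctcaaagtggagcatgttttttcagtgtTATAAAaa
Cyp2c37: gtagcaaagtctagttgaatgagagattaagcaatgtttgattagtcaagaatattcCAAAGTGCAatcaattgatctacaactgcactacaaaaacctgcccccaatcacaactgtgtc
Cyp2c50: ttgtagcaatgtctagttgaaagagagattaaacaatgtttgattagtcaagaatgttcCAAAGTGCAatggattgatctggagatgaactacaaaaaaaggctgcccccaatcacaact
Cyp2c67: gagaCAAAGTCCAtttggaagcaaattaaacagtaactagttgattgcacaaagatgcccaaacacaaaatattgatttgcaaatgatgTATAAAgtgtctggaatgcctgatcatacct
Cyp2c68: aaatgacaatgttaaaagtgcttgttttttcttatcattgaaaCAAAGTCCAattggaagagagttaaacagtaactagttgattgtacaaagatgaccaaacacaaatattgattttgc
Cyp2c70: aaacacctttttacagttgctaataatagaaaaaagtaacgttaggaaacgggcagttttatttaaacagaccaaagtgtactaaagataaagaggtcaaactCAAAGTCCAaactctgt
Cyp2b10: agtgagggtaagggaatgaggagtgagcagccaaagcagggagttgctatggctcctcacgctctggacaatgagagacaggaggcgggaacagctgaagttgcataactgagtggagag
They lie at chr19:39286954-39287073, chr19:39992304-39992423, chr19:40089559-40089678 and chr7:25897500-25897619 on the plus strand and at chr19:39649052-39649171, chr19:39741102-39741221 and chr19:40187334-40187453 on the minus strand. Both strands were searched for TGNACTTTG over the 250 bases before each start, and the gene's strand only for TATAAA. The motifs do not overlap. TGNACTTTG was found for 14 of the 65 members with a promoter (21.5%), against 1.40% of 27025 genes, and the 14 were 8 *Cyp2c*, 5 *Cyp3a* and 1 *Cyp2d* gene. TATAAA was found for 29.2% of the members and 8.94% of genes. Of the genes shown, *Cyp2c29* and *Cyp2b10* had no TGNACTTTG in the searched window. *Cyp2c38* and *Cyp2c55*, which are not shown, had TATAAA and no TGNACTTTG, and each fell in 1 lipid comparison. A relation between the motifs and the changes with lipid was not tested. A match describes letters only, and binding was not measured.

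*Cyp2c67* showed the largest fall of the subfamily among calls in both comparisons. Its levels were 95.2, 109, 114 and 145 CPM in untreated hepatocytes of replicates A to D, 99.8, 118, 121 and 148 CPM with itaconate, 68.4, 79.2, 95.7 and 117 CPM with lipid and 78.3, 94.5, 82.1 and 104 CPM with lipid + itaconate. It was lower with lipid in all letters, 1.29-fold without itaconate (log2 fold change −0.37, SE 0.063, edgeR adjusted p = 0.000204) and 1.35-fold with it (log2 fold change −0.43, SE 0.063, edgeR adjusted p = 5.83e-05). *Cyp2c68* was at 60.3, 46.0, 44.5 and 60.4 CPM in untreated hepatocytes of replicates A to D, 59.4, 55.6, 47.4 and 68.3 CPM with itaconate, 40.2, 44.0, 39.1 and 56.1 CPM with lipid and 50.4, 46.3, 34.97 and 53.7 CPM with lipid + itaconate. It fell as well (log2 fold change −0.23, SE 0.071, edgeR adjusted p = 0.0140 and log2 fold change −0.32, SE 0.070, edgeR adjusted p = 0.00178). Both share stretches with *Cyp2c40*, so the division of counts between them is uncertain. *Cyp2c50*, an arachidonic acid epoxygenase, fell to a smaller extent (−0.21 and −0.23, edgeR adjusted p = 0.0126 and 0.00714).

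*Cyp2c29* encodes an abundant arachidonic acid epoxygenase and was at 442, 507, 552 and 649 CPM in untreated hepatocytes of replicates A to D, 483, 585, 586 and 661 CPM with itaconate, 502, 597, 618 and 699.7 CPM with lipid and 546, 644, 538 and 654 CPM with lipid + itaconate. With lipid alone it was higher in 4 of 4 letters with overlapping groups (log2 fold change 0.17, SE 0.058, edgeR adjusted p = 0.0233), a call lost in 5 of the 22 alternatives (without the replicate letter, without untreated replicate A or B, and without lipid replicate C or D), and with itaconate present its log2 fold change was 0.048 (SE 0.058, edgeR adjusted p = 0.516). *Cyp2c38* was at 7.39, 6.83, 9.70 and 9.80 CPM in untreated hepatocytes of replicates A to D, 6.66, 7.75, 8.53 and 9.93 CPM with itaconate, 5.88, 5.18, 7.93 and 8.26 CPM with lipid and 6.65, 6.27, 7.27 and 8.42 CPM with lipid + itaconate. It fell without itaconate (log2 fold change −0.31, SE 0.094, edgeR adjusted p = 0.0125, against −0.20 (SE 0.092, edgeR adjusted p = 0.0911) with it), and a difference between both was not detected (interaction edgeR adjusted p = 0.858). *Cyp2c37*, *Cyp2c54* and *Cyp2c55* passed with itaconate present and not without it, at log2 fold changes of −0.20, −0.19 and −0.37. *Cyp2c70*, which makes the muricholic acids of mouse bile, was at 71.8 ± 15.8 CPM in untreated and 69.6 ± 12.9 CPM (SD, n = 4) in lipid-treated cells (log2 fold change −0.041, SE 0.054, edgeR adjusted p = 0.563). The summed level of all 15 genes was 1326 ± 180.5 CPM without and 1297 ± 187 CPM with lipid.

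Single-gene subfamilies and the *Cyp2j* genes held 3 of the 8 members that fell in both comparisons. *Cyp2f2*, a naphthalene-oxidizing enzyme known to be periportal in the liver, was at 328, 292, 328 and 288 CPM in untreated hepatocytes of replicates A to D, 339, 291, 315 and 278 CPM with itaconate, 243, 234, 252 and 218 CPM with lipid and 269.9, 291, 208 and 226 CPM with lipid + itaconate. The lipid libraries were all below the untreated ones, with a 1.31-fold fall (log2 fold change −0.39, SE 0.077, edgeR adjusted p = 0.000742), and the fall with itaconate present was 1.23-fold (log2 fold change −0.30, SE 0.077, edgeR adjusted p = 0.00481). In that second comparison the fall ranged over letters from −0.60 to −0.0012 on the log2 scale, with replicate B at 291 and 291 CPM. *Cyp2j5*, an epoxygenase of liver and kidney, was at 154, 146, 146 and 156 CPM in untreated hepatocytes of replicates A to D, 158, 162, 169 and 165 CPM with itaconate, 116, 119, 124 and 129 CPM with lipid and 146, 158, 109 and 132 CPM with lipid + itaconate. The groups overlapped in neither comparison (log2 fold change −0.30, SE 0.078, edgeR adjusted p = 0.00475 and log2 fold change −0.27, SE 0.077, edgeR adjusted p = 0.0103). *Cyp2j6* and *Cyp2j9* passed neither test. *Cyp2r1*, the vitamin D hydroxylase of the liver, was at 12.2, 12.5, 10.7 and 10.5 CPM in untreated hepatocytes of replicates A to D, 10.2, 10.4, 10.8 and 9.78 CPM with itaconate, 11.1, 9.24, 7.53 and 8.09 CPM with lipid and 9.38, 9.85, 7.54 and 8.34 CPM with lipid + itaconate. It fell too (log2 fold change −0.36, SE 0.093, edgeR adjusted p = 0.00491 and log2 fold change −0.24, SE 0.093, edgeR adjusted p = 0.0449).

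The most abundant member, *Cyp2e1*, passed neither lipid test. It was at 1428, 1526, 1923 and 1996 CPM in untreated hepatocytes of replicates A to D, 1496, 1733, 2047 and 2091 CPM with itaconate, 1199, 1486, 1811 and 1893 CPM with lipid and 1432, 1816, 1463 and 1850.1 CPM with lipid + itaconate. The log2 fold changes were −0.11 (SE 0.081, edgeR adjusted p = 0.268) and −0.16 (SE 0.081, edgeR adjusted p = 0.130). Its libraries were lower with lipid in 4 of 4 and 3 of 4 letters. *Cyp2a5*, which hydroxylates coumarin and nicotine, was at 352, 432, 457 and 452 CPM in untreated hepatocytes of replicates A to D, 375, 502, 508 and 533 CPM with itaconate, 308, 409, 368 and 384 CPM with lipid and 379.9, 507, 420.3 and 457 CPM with lipid + itaconate. It fell with lipid alone (log2 fold change −0.20, SE 0.054, edgeR adjusted p = 0.00541), against −0.12 (SE 0.053, edgeR adjusted p = 0.0888) with itaconate present. *Cyp2a12*, a steroid hydroxylase, passed in the second comparison and not in the first (log2 fold change −0.15, SE 0.053, edgeR adjusted p = 0.0266).

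The *Cyp2d* and *Cyp3a* genes encode drug-oxidizing enzymes. Of 5 *Cyp2d* genes tested, 1 fell, *Cyp2d26* (log2 fold change −0.15, SE 0.059, edgeR adjusted p = 0.0432), and with itaconate present none passed. *Cyp2d9*, a male-type testosterone hydroxylase, was at 405, 437, 474 and 418 CPM in untreated hepatocytes of replicates A to D, 418, 489, 477 and 442 CPM with itaconate, 356, 405, 413 and 389 CPM with lipid and 417, 469.8, 355 and 392 CPM with lipid + itaconate. The log2 fold changes were −0.15 (SE 0.066, edgeR adjusted p = 0.0750) and −0.16 (SE 0.066, edgeR adjusted p = 0.0594). *Cyp2d10* was at 362, 363, 364 and 331 CPM in untreated hepatocytes of replicates A to D, 375, 388, 373 and 348 CPM with itaconate, 401, 384, 370.5 and 355 CPM with lipid and 426, 415, 319.8 and 353 CPM with lipid + itaconate. Unlike the 4 other tested *Cyp2d* genes, it had log2 fold changes above 0, which did not pass, at 0.087 (SE 0.058, edgeR adjusted p = 0.225) and 0.024 (SE 0.058, edgeR adjusted p = 0.753).

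In the *Cyp3a* subfamily, no gene passed without itaconate, and *Cyp3a25* and *Cyp3a59*, which share 25.2% and 26.8% of their stretches with each other, fell with it (log2 fold change −0.28, SE 0.091, edgeR adjusted p = 0.0180 and log2 fold change −0.29, SE 0.11, edgeR adjusted p = 0.0451). *Cyp3a25* was at 136, 117, 130.4 and 124 CPM in untreated hepatocytes of replicates A to D, 140.4, 135, 140.2 and 129 CPM with itaconate, 97.5, 101, 126 and 117 CPM with lipid and 124, 126, 97.7 and 99.1 CPM with lipid + itaconate. *Cyp3a59* was at 10.8, 8.09, 6.89 and 6.27 CPM in untreated hepatocytes of replicates A to D, 11.5, 9.82, 10.1 and 7.68 CPM with itaconate, 7.79, 7.44, 7.20 and 4.95 CPM with lipid and 10.6, 10.0, 6.29 and 5.69 CPM with lipid + itaconate. The lipid + itaconate libraries were all below the itaconate libraries for *Cyp3a25* and overlapped them for *Cyp3a59*. *Cyp3a11*, the gene classically induced through the pregnane X receptor, was at 1400.2, 1201, 1265 and 1166 CPM in untreated hepatocytes of replicates A to D, 1418, 1414, 1299.7 and 1237 CPM with itaconate, 1097, 1127, 1199 and 1142 CPM with lipid and 1362, 1378, 987 and 1077 CPM with lipid + itaconate. *Cyp3a13* was at 60.7, 57.4, 62.0 and 72.1 CPM in untreated hepatocytes of replicates A to D, 63.8, 60.6, 53.5 and 71.4 CPM with itaconate, 57.2, 59.5, 47.1 and 56.3 CPM with lipid and 51.4, 49.7, 59.8 and 59.4 CPM with lipid + itaconate. Neither passed, with log2 fold changes of −0.14 (SE 0.080, edgeR adjusted p = 0.174) and −0.17 (SE 0.080, edgeR adjusted p = 0.0990) for *Cyp3a11* and of −0.19 (SE 0.079, edgeR adjusted p = 0.0556) and −0.17 (SE 0.079, edgeR adjusted p = 0.0804) for *Cyp3a13*.

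Of the 5 *Cyp4f* genes tested none passed without itaconate, and with it 2 rose and 1 fell. *Cyp4f14*, whose product inactivates leukotrienes, was at 64.7, 64.7, 62.1 and 74.4 CPM in untreated hepatocytes of replicates A to D, 69.2, 77.3, 72.1 and 78.1 CPM with itaconate, 52.9, 60.4, 57.8 and 67.6 CPM with lipid and 66.4, 74.6, 46.5 and 64.8 CPM with lipid + itaconate. It fell (log2 fold change −0.24, SE 0.085, edgeR adjusted p = 0.0295). *Cyp4f16* was at 16.0, 16.1, 10.7 and 14.0 CPM in untreated hepatocytes of replicates A to D, 14.2, 10.6, 7.71 and 11.6 CPM with itaconate, 18.7, 15.4, 11.8 and 13.9 CPM with lipid and 14.2, 11.8, 12.6 and 13.8 CPM with lipid + itaconate. It rose (log2 fold change 0.27, SE 0.11, edgeR adjusted p = 0.0472), in 3 of 4 letters. *Cyp4f13* rose by 0.13 on the log2 scale (edgeR adjusted p = 0.0412), without overlap between the groups. *Cyp4v3*, a fatty acid hydroxylase and the only *Cyp4v* gene, was at 169, 163, 181 and 186 CPM in untreated hepatocytes of replicates A to D, 164, 161, 164 and 169 CPM with itaconate, 164, 171, 167 and 176 CPM with lipid and 164, 175, 165 and 171 CPM with lipid + itaconate. The log2 fold changes were −0.041 (SE 0.041, edgeR adjusted p = 0.419) and 0.036 (SE 0.040, edgeR adjusted p = 0.486). Libraries with and without lipid did not overlap for 4 of the 43 members in either comparison, against 32.5% and 31.4% of all genes.

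These counts depended on the model. Without the replicate letter as a block, 5 members passed in each lipid comparison, where 35.5% and 34.2% of all genes passed. They were *Cyp2b10*, *Cyp2u1*, *Cyp2f2*, *Cyp2j5* and *Cyp2r1* without itaconate and *Cyp2b10*, *Cyp2c67*, *Cyp2f2*, *Cyp2j5* and *Cyp3a25* with it. Of the 16 and 20 calls, 5 and 4 held under every alternative: the first 5 just named, and *Cyp2b10*, *Cyp2c67*, *Cyp2f2* and *Cyp2j5*. When each model held no libraries but the 8 compared, 26 and 13 members passed, where 48.2% and 41.1% of all genes passed. Without lipid + itaconate replicate C, 26 members passed in the comparison without itaconate, with 51.4% of all genes. There were 18 without replicate B of that group, with 48.6% of all genes. In the comparison with itaconate, 9 passed without lipid + itaconate replicate C (44.3% of all genes) and 26 without its replicate B (45.3%). The same count was 7 without lipid + itaconate replicate D (39.4% of all genes) and 10 without itaconate replicate C (38.8%). Marker lists also held calls with lipid, where 47.5% of all genes passed without itaconate and 47.0% with it. Of 10 hepatocyte markers 1 rose and 3 fell without itaconate and 1 rose and 5 fell with it, and of 10 macrophage markers 1 rose and 6 fell, and 1 rose and 8 fell. The summed hepatocyte markers were at 36105 to 48788 CPM with lipid and 32519.7 to 53923 CPM with both, and the summed macrophage markers at 523 to 689 and 552 to 632 CPM. Their part in the P450 changes was not tested.

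The balance between related members was also measured as a ratio within each library, which no scaling between libraries can move. Lipid and control libraries were matched by letter and by the other agent, which gives 8 pairs, although 2 pairs share each letter, and 8 such tests were run with a two-sided exact permutation test over all sign flips. The ratio of *Cyp4a14* to *Cyp4a12a* was higher with lipid in 8 of 8 pairs, by 0.084 ± 0.039 (SD) on the log2 scale (exact p = 0.00781, the smallest that 8 pairs can give, and 0.0312 after adjustment over the 8 tests). The ratio of *Cyp2e1*, known to be pericentral, to the periportal *Cyp2f2* was also higher in 8 of 8 pairs, by 0.21 ± 0.10 (exact p = 0.00781, adjusted 0.0312). *Cyp1a1* over *Cyp1a2* was higher in 7 of 8 pairs, by 0.55 ± 0.42, and missed the threshold after adjustment (exact p = 0.0234, adjusted 0.0625). *Cyp3a11* over *Cyp3a13* changed by 0.031 ± 0.32, from −0.56 to 0.33 (exact p = 0.797, adjusted 0.867). With itaconate, the same ratios changed by −0.023 ± 0.046, 0.054 ± 0.10, 0.030 ± 0.48 and 0.085 ± 0.37 in this order, and the exact permutation p ran from 0.188 to 0.867. With lipid, 23.7% of all genes fell without itaconate and 23.5% with it. Of 8 pericentral markers outside the P450 genes, 4 fell without itaconate and 5 with it, and none rose. Of 8 periportal ones, 3 fell and 1 rose without itaconate, and 5 fell and 1 rose with it. Their part in the ratios was not tested.

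Itaconate was compared with no treatment, and lipid + itaconate with lipid, to ask whether itaconate changes P450 transcripts by itself or beside lipid. No member passed in the first comparison, where 4.91% of all genes did (1.96% upward and 2.95% downward), and DESeq2 called 2, with 6.72% of all genes. At an unadjusted p under 0.05 there were 7, where 21.3% of all genes were: *Cyp4f16* (−0.38), *Cyp2a5* (0.18), *Cyp3a59* (0.31), *Cyp2a12* (0.14), *Cyp2j9* (0.56), *Cyp2u1* (0.34) and *Cyp4v3* (−0.086, all on the log2 scale). *Cyp4f16* came closest, with lower values in 4 of 4 letters (edgeR adjusted p = 0.0542). The log2 fold changes of the members ran from −0.38 to 0.56 with a median of 0.074, against −0.0019 for all genes, and 32 of 43 were above 0. *Cyp2j5* was the 1 member whose libraries did not overlap, against 7.53% of all genes (log2 fold change 0.12, SE 0.077, edgeR adjusted p = 0.375). A model of only the 8 libraries called 7 members, 6 of them higher, with 16.0% of all genes called. Leaving out single libraries gave 0 to 3 calls. There were 2 without lipid + itaconate replicate B (6.17% of all genes) and 3 without replicate C of that group (8.96% of all genes).

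Beside lipid, *Cyp2a5* was the 1 member that passed, where 2.58% of all genes did and 1.32% rose. No member had libraries without overlap there, against 5.82% of all genes. From the values given above, its lipid + itaconate library was above the lipid library in 4 of 4 letters with overlapping groups, and it rose 1.202-fold (log2 fold change 0.26, SE 0.054, edgeR adjusted p = 0.0193). The call was lost in 7 of the 22 alternatives, namely the model without the replicate letter, the model of only the 8 libraries, and the models without lipid replicate A, C or D or without lipid + itaconate replicate A or B, and its adjusted p over all alternatives ran from 5.15e-05 to 0.479. In cells that had no lipid, *Cyp2a5* was higher with itaconate in 4 of 4 letters too, at 0.18 (SE 0.053, edgeR adjusted p = 0.0710). The summed level of both tested *Cyp2a* genes with their 2 low relatives went from 593 ± 36.2 to 668 ± 56.1 CPM with itaconate alone and from 533 ± 34.5 to 611 ± 58.1 CPM beside lipid, higher in every letter. Most of this sum was *Cyp2a5*. *Cyp2a12* went from 169 ± 13.7 to 187 ± 16.9 CPM with itaconate alone, higher in every letter. Beside lipid it went from 165 ± 14.9 to 169 ± 27.4 CPM, higher in A, B and D and lower in C (156 and 140 CPM).

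No member showed an interaction between lipid and itaconate (1 gene of 11675, 0.00857%, passed), and 2 had an unadjusted p under 0.05, where 8.60% of all genes did. The 3 smallest p-values were those of *Cyp4a12b*, at 0.26 (SE 0.11, edgeR adjusted p = 0.545), *Cyp2u1*, at −0.42 (SE 0.19, edgeR adjusted p = 0.568), and *Cyp1a1*, at −0.63 (SE 0.33, edgeR adjusted p = 0.623). DESeq2 and every other alternative likewise called none.

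The direction of the members beside lipid was not the same in every letter, and with 1 library per letter and treatment this was not tested. In A and B, 33 and 37 of the 43 members were higher with lipid + itaconate than with lipid, with median log2 ratios of 0.15 and 0.19. In C and D, 10 and 21 were higher, with medians of −0.16 and −0.0027. Over all genes tested the share that was higher lay between 49.4% and 49.95% in each letter. *Cyp3a11* shows this in single libraries, with 1097 and 1362 CPM with lipid and with both in A, 1127 and 1378 CPM in B, 1199 and 987 CPM in C, and 1142 and 1077 CPM in D. Marker sums differed between letters as well. The pericentral markers outside the P450 genes were at 515, 573, 576 and 583 CPM with lipid in A to D and at 567, 714, 472 and 535 CPM with both. The hepatocyte markers were at 48788, 40688, 36105 and 38207 CPM with lipid and at 53923, 46399.5, 32519.7 and 38053 CPM with both. The periportal markers were at 1334, 1061, 1068 and 1012 CPM with lipid and at 1542, 1353, 858 and 980.2 CPM with both. These 3 sums were higher with both in A and B and lower in C and D. The summed macrophage markers, mostly *Cd14* and *Cd68*, went the other way, from 583, 689, 523 and 530.2 CPM to 552, 632, 561 and 578 CPM. Over the 10 macrophage markers the median log2 fold change with both against lipid was −0.24, and 1 passed, lower. The part of these markers in the P450 values was not tested. In cells without lipid, 33, 34, 28 and 27 members were higher with itaconate in A to D.

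**Figure D4:**
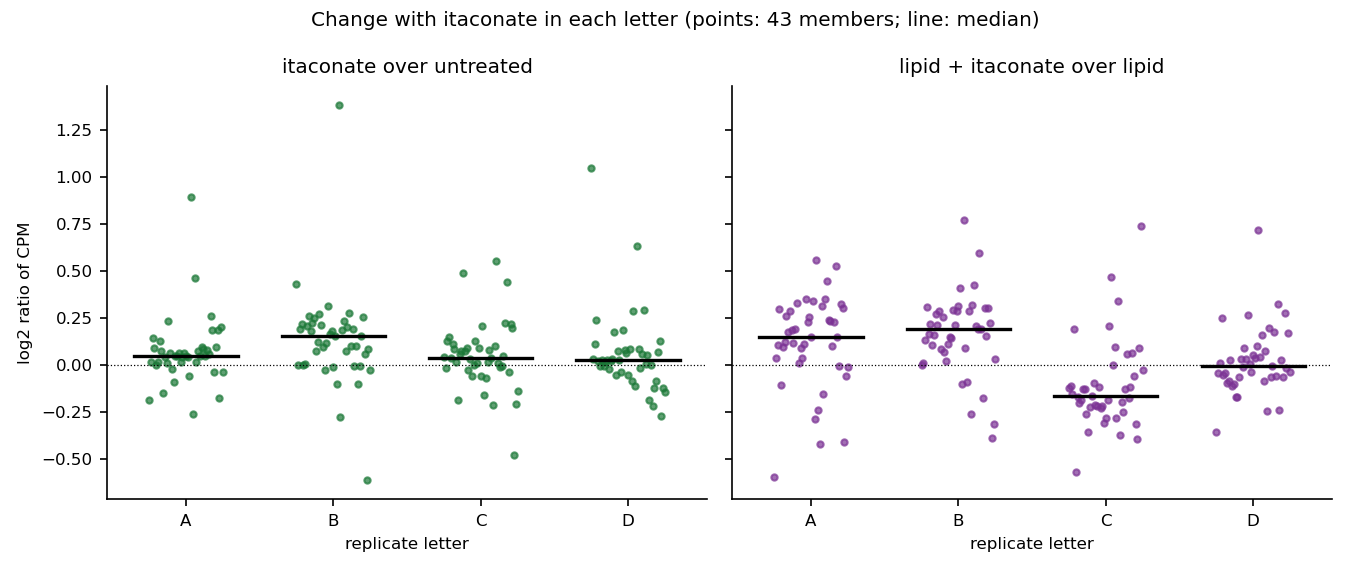
Log2 ratio of CPM with over without itaconate for each of the 43 members (points) in each replicate letter, in cells without lipid (left) and with lipid (right), with the median as a line. Beside lipid the medians are 0.15 and 0.19 in A and B and −0.16 and −0.0027 in C and D.

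The replicate letter itself was tested, a step added after the values were seen. The letter passed for 25 of the 43 members (edgeR F test over the letter terms, adjusted p under 0.05), where it passed for 25.8% of all genes. On the log2 scale the letter held a median 49.0% of a member's sum of squares and treatment 28.0%, against 20.6% and 46.8% for all genes. The letter's share was larger than that of treatment for 28 of the 43 members, and for 30.9% of all genes. By subfamily, its median share was highest in the *Cyp4a* genes, where 6 of 6 passed with shares of 63.7% to 94.3%, followed by the *Cyp2c* genes, where 9 of 10 passed with 31.9% to 94.5%. Of 5 *Cyp2d*, 4 *Cyp3a* and 5 *Cyp4f* genes, 1 each passed.

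Subfamilies did not follow one order of letters. For *Cyp4a10* and *Cyp4a14* the C and D libraries were above the A and B libraries in every treatment, as the values above show, and their means over the 4 treatments were 70.9, 69.9, 122 and 108 CPM in A to D for *Cyp4a10* (edgeR adjusted p = 3.64e-07). *Cyp4a31* had the largest ratio between letters, with 0.960 CPM in A and 2.63 CPM in C, 2.74-fold apart. *Cyp4a12b* was lowest in A in all 4 treatments and 2.67-fold higher in C. *Cyp2b10*, in contrast, was lowest in C in all 4 treatments, at a mean of 26.0 CPM against 51.5 CPM in B. Within the *Cyp2c* cluster, *Cyp2c37* was highest in D (100.4 CPM against 57.0 CPM in A) while *Cyp2c70* was lowest in C (51.5 CPM against 84.9 CPM in A), each in all 4 treatments. For *Cyp2c70* the letter held 94.5% of the sum of squares and treatment 0.756%. *Cyp2u1* and *Cyp2j5* stood at the other end, with 78.0% and 69.0% for treatment. Marker sums differed between letters too, with hepatocyte markers at 58012, 44790.4, 41774 and 43963 CPM and macrophage markers at 599, 649.7, 556 and 552 CPM in untreated A to D. Their part in the letter differences was not tested.

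**Figure D5:**
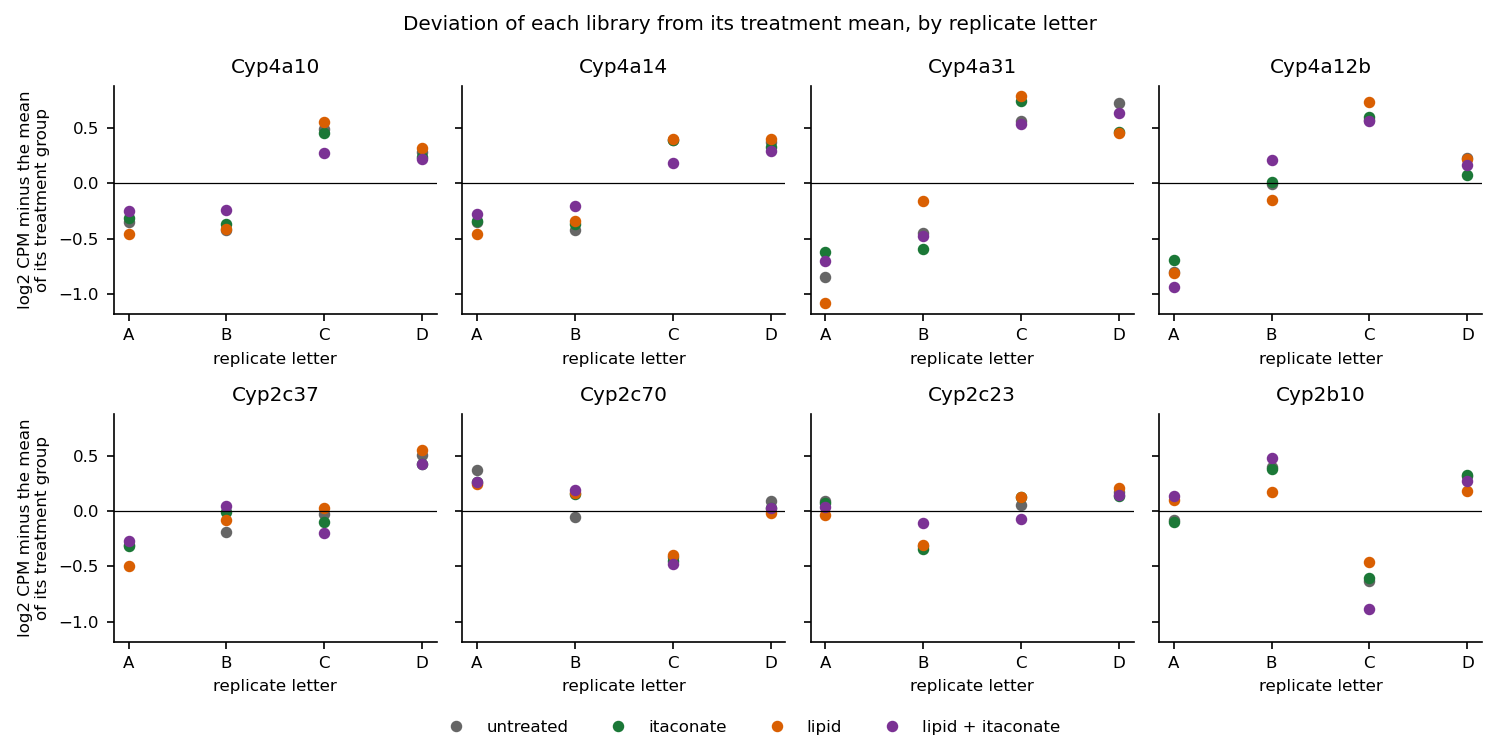
Deviation of each library from the mean of its treatment group (log2 CPM) for 8 members, by replicate letter, with 1 colour per treatment. The 4 treatments of a letter lie close together, and *Cyp4a10* and *Cyp4a14* are above 0 in C and D while *Cyp2b10* is lowest in C.

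The regulators of these genes were read from a list of 16, of which 15 were tested. With lipid, 4 rose and 3 fell without itaconate, and 4 rose and 5 fell with it, where 47.5% and 47.0% of all genes passed. *Ahr*, the receptor behind *Cyp1a1*, fell in both (−0.73, edgeR adjusted p = 2.46e-07, and −0.58, edgeR adjusted p = 2.65e-06). The pregnane X receptor *Nr1i2* rose in both (0.55, edgeR adjusted p = 9.57e-05, and 0.22, edgeR adjusted p = 0.0479). The constitutive androstane receptor *Nr1i3*, known to act on *Cyp2b10*, had −0.071 without itaconate (edgeR adjusted p = 0.744) and fell with it (−0.40, edgeR adjusted p = 0.0488). The transcript of *Hnf4a* rose by 0.21 with itaconate present (edgeR adjusted p = 0.0143), and that of *Ppara* passed in neither. With itaconate, no regulator passed in cells without lipid, and *Ahr* rose in cells with lipid (0.27, edgeR adjusted p = 0.0342).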

How the data were processed

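Poly(A) RNA of primary mouse hepatocytes was sequenced in 16 libraries. Per the labels and the study's methods, the authors demultiplexed reads with bcl2fastq 2.20, trimmed them with cutadapt 1.18, aligned them to mm10 with STAR 2.7.0f, collected metrics with Picard 2.18.26 and deposited RSEM 1.3.1 expected counts per gene. The GENCODE release is not given in the sources used here, and all 55450 identifiers were found in mouse release M21.

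The expected counts were rounded and fitted with edgeR 4.0.16 (R 4.3.3, limma 3.58.1) by its quasi-likelihood test over all 16 libraries, with treatment and replicate letter as terms, TMM scaling and a mean of at least 1 CPM (11675 genes). P-values were adjusted over all genes by the Benjamini-Hochberg method, with a threshold of 0.05. The letter was kept as a block because the study removed a batch before its comparisons and the labels give each treatment the same letters. Libraries of the same letter deviated together, with 24 correlations of their deviations from 0.144 to 0.469 (median 0.263). Between letters they ran from −0.436 to 0.178 (median −0.114), so the ranges overlapped. Deviations taken from the mean of a small group tend to give values below 0 between letters. Alternatives were no block, RLE scaling, other filters, DESeq2 1.42.0, only the 8 libraries compared, and leaving out each library. The procedure was tested on simulated data. These held no differences between letters and no library set apart, so they do not test the letter block. Ratios used a pseudocount of 0.5 counts.

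Members, gene lists and tests were chosen with earlier results of these data known. Values in every library were given for the 8 largest changes called in each comparison among members with a mean of at least 5 CPM, for known representatives of the subfamilies, and for the 3 smallest p-values of the interaction, and any tested member could be named. Lists covered regulators, redox partners, haem genes, other P450 families, *Ahr* and *Ppara* targets, and markers of hepatocytes, zones, macrophages, endothelium, stellate cells and bile ducts. Sequences came from RefSeq promoters, and Python 3.11.15 with NumPy 2.4.6 and pandas 2.3.3 was used.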

Additional observations from a re-analysis of the deposited data

Results flagged for a closer look

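In 128 groups of 4 libraries, from 32 members, 2 groups held 1 library far from the other 3, and chance gives about 1 in 20. *Cyp2b10* was at 41.4 CPM in lipid replicate C, below 61.0, 64.2 and 64.4 CPM in lipid replicates A, B and D. *Cyp2c54* was at 109 CPM in lipid replicate D, above 70.7, 70.7 and 76.0 CPM in replicates A, B and C. Neither order was particular to lipid, as *Cyp2b10* was lowest in C and *Cyp2c54* highest in D in all 4 treatments.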

How the results depend on the processing

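Counts of members called moved with the model. Without the replicate block, the counts with lipid were 5 (from 16) without itaconate and 5 (from 20) with it, and the 1 call with itaconate beside lipid became 0. Of all genes, 35.5%, 34.2% and 0.0771% passed there. DESeq2 gave 22 and 22 for lipid and 2 for itaconate, where 46.5%, 46.3% and 6.72% of all genes passed. No filter gave 21, 25 and 2 of 65 members (32.3%, 38.5% and 3.08%), where 22.4%, 22.2% and 4.34% of all genes passed. Only the 8 libraries of a comparison gave 26, 13 and 7, and 0 for itaconate beside lipid, where 48.2%, 41.1%, 16.0% and 0.111% of all genes passed. Leaving out single libraries gave 11 to 26, 7 to 26, 0 to 3 and 0 to 3 in the same order, and 0 to 0 for the interaction. The shares of all genes ran from 40.4% to 51.4%, 38.8% to 47.6%, 1.28% to 8.96% and 0.505% to 7.61% in the first 4 of these. The causes were not tested, apart from the larger number of genes without a filter.

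Of 37 called gene results, 645 of 811 alternative values stayed past the threshold and 166 did not, with none reversed. Of 38 not called, 94 of 827 crossed it, and *Cyp2c29* with lipid + itaconate against itaconate had 0.11 without replicate C of the group with both agents and −0.0025 without its replicate A. Without single letters, log2 ratio changes ran as follows. *Cyp4a14* over *Cyp4a12a* ran from 0.079 to 0.089 with lipid and from −0.033 to −0.013 with itaconate, *Cyp2e1* over *Cyp2f2* from 0.20 to 0.22 and from 0.045 to 0.068, *Cyp1a1* over *Cyp1a2* from 0.48 to 0.63 and from −0.065 to 0.18 (−0.030 without replicate B), and *Cyp3a11* over *Cyp3a13* from −0.024 to 0.080 and from −0.0039 to 0.18. The first 2 lipid calls were lost there because 6 pairs allow no smaller exact p than 0.0312 before adjustment. All 42 alternative values of summed subfamily levels stayed within 1 SD, but this does not test how stable the sums are. Leaving out replicate B cannot move a mean over the letters by as much as 1 SD. RLE scaling shifted all sums of a comparison by the same amount. Low counts limit *Cyp1a1*, *Cyp2j9*, *Cyp4a31*, *Cyp2c55* and *Cyp4a32*, which were under 5 CPM, and the members that could not be tested.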

Other observations

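Lists of genes that serve P450 enzymes held some calls with lipid, where 47.5% of all genes passed without itaconate and 47.0% with it. Of 8 genes listed as redox partners, 2 fell with lipid, *Cyb5b* (−0.47, edgeR adjusted p = 3.33e-06) and *Fdx1* (−0.31, edgeR adjusted p = 0.0355). With itaconate present 2 fell, and none passed in either itaconate comparison. Of 12 genes of haem synthesis and breakdown, 2 rose and 1 fell with lipid, and 4 rose and 2 fell with itaconate present. *Fech*, which inserts iron into haem, was the one that fell without itaconate (−0.39, edgeR adjusted p = 3.11e-06).

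Of 10 genes of other P450 families in liver, 7 were tested. With lipid, *Cyp26a1*, which clears retinoic acid, fell (−1.40, edgeR adjusted p = 2.08e-05), as did *Cyp51* of cholesterol synthesis (−0.87, edgeR adjusted p = 2.88e-06), while *Cyp8b1* of bile acid synthesis rose (0.60, edgeR adjusted p = 3.79e-05). With itaconate present, 2 rose and 2 fell. With itaconate alone, *Cyp20a1* fell (−0.37, edgeR adjusted p = 0.000609), and beside lipid *Cyp8b1* rose (0.32, edgeR adjusted p = 0.0459). With lipid, 1 endothelial marker rose and 1 fell, no stellate marker passed, and 1 bile duct marker fell. With itaconate present, 1 marker of each of these 3 lists fell and none rose.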
